A study of Homo sapiens with 8 samples.

Results

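The integrated stress response was followed through 10 genes: ATF4, ATF5, DDIT3, DDIT4, TRIB3, CHAC1, SESN2, ASNS, SLC7A11 and SLC7A5. They were chosen by name, with earlier results of these data known. For each name the locus with the highest mean over all libraries was taken, and 7 of the 10 were measured, out of 19470 named genes. ATF4, ATF5 and ASNS were not analysed here. CHAC1 had 2 loci, of which the second stayed below 1 in every library, and the other 6 measured genes had 1 each.

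RNA was sequenced from MEL202, a human uveal melanoma cell line with mutant SF3B1, a splicing factor. The 4 lines were a mutant SF3B1 knockout, a mutant degron line (destabilising domain on the mutant protein), a wildtype degron line (the domain on the wildtype protein) and parental cells, each without and with Shld. Shld is a small ligand that protects the destabilising domain, so that its withdrawal lets the tagged protein be degraded. The labels give 2 days for the 3 derived lines and no time for parental cells. The column headers differ for the knockout line: they also name a degron on wildtype SF3B1 and 4 days without Shld, and they give 4 days for parental cells without Shld. Each derived line is labelled as a clone, so clone and genotype cannot be told apart. There was 1 library for each line and Shld state, and separate cultures are not stated, so the p-values below measure only the spread between these libraries. Values are rescaled FPKM, that is, fragments per length of transcript and per library, which the authors had scaled to a common 75th percentile. In bulk RNA, fewer cells expressing a gene and less RNA per cell cannot be told apart.

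The integrated stress response starts when kinases such as PERK (EIF2AK3) and GCN2 (EIF2AK4) phosphorylate the translation factor eIF2. Most translation then slows, while the transcription factor ATF4 is translated more and switches on genes for amino acid supply, together with CHOP (DDIT3) and feedback inhibitors. Under lasting stress the same programme can lead to cell death. Tumour cells also use it to keep up amino acid import and glutathione synthesis.

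The dimers that ATF4 forms with C/EBP proteins bind elements with the letters TGATGNAA, so the promoters were searched for this motif on both strands. RefSeq promoters (GRCh38.p14, 250 bases before to 50 after a start) were matched for 6 of the 7 measured genes, with 9 starts in all. CHAC1 held 1 match and the other 5 genes none. Of all 35116 promoters of this length, 3.62% held a match, and of their 27305 genes 4.46% had a promoter with a match. A match is a description of letters, and a missing one says only that these letters are not in this window. CHAC1 (chr15:40953221-40953520, plus strand) and SESN2 (chr1:28259268-28259567, plus strand) are shown because they passed the test on Shld withdrawal, and SLC7A5 (chr16:87869458-87869757, minus strand) because it differed most between lines. Capitals mark the match, which begins 209 bases before the CHAC1 start.
CHAC1: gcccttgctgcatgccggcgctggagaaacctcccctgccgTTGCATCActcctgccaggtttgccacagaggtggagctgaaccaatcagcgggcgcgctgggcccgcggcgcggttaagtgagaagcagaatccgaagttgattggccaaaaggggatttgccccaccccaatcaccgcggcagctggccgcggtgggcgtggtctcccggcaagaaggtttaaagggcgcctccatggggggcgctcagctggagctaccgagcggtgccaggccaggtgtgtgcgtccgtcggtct
SESN2: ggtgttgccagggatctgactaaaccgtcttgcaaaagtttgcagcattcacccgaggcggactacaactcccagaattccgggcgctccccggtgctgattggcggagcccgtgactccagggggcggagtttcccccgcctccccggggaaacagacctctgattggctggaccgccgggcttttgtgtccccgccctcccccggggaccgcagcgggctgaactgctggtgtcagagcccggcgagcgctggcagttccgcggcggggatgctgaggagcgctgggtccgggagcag
SLC7A5: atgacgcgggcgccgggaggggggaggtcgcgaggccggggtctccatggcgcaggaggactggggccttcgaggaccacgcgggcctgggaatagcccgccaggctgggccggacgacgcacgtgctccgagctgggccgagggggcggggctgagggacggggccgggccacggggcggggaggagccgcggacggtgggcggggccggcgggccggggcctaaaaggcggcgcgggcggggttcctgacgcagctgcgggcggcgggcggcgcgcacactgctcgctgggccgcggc

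The lines were first checked by SF3B1 itself, a core subunit of the complex that recognises intron branch points. It stood at 138 and 158 rescaled FPKM in the knockout line without and with Shld, against 240 and 266 in parental cells, a log2 difference of -0.77 ± 0.097 (limma, adjusted p = 0.00038). The degron lines had 252 and 248 (mutant) and 201 and 188 (wildtype, -0.38 ± 0.097 from parental cells, limma, adjusted p = 0.012); a degron acts on protein, so RNA does not check it. Melanocyte markers were present, with 8 of 8 at 1 or more in every library. Their summed level was 6442 and 7185 in the knockout line, 9138 and 7561 in the mutant degron line, 14207 and 15399 in the wildtype degron line, and 12932 and 11949 in parental cells. Of other cell types, 4 measured epithelial markers were below 1, of 3 fibroblast markers LUM alone reached 1 (summed level 1.64 to 29.9), and among immune markers CD3E was listed at 0 (summed level 639 to 834, mostly the lysosomal gene CD68). Ribosomal protein genes took 12.9% and 13.3% of all values in the wildtype degron line, against 17.8% to 22.5% in the other 6 libraries.

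Across the lines, DDIT3, TRIB3 and SLC7A5 were lower in both the knockout and the mutant degron line than in parental cells. SLC7A5 and DDIT4 were higher in the wildtype degron line than in parental cells. CHAC1 and SESN2 did not pass in any of these 3 comparisons, although with the Shld state as a covariate CHAC1 passed as lower in mutant degron cells (limma, adjusted p = 0.031). The tests below take both Shld states of a line as its 2 libraries and adjust p over 8600 genes with a mean of at least 5. SLC7A11, with a mean of 3.88, was tested apart among 10522 genes with a mean of at least 1.

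DDIT3 encodes CHOP, a transcription factor of prolonged stress that promotes cell death. It stood at 38.1 and 28.9 rescaled FPKM in the knockout line without and with Shld, at 45.6 and 51.7 in the mutant degron line, at 75.6 and 58.5 in the wildtype degron line, and at 82.0 and 83.7 in parental cells. All 6 libraries of the derived lines were below both parental libraries, and the knockout line was lowest. The log2 difference from parental cells was -1.29 ± 0.15 in the knockout line (limma, adjusted p = 0.00026) and -0.76 ± 0.15 in the mutant degron line (limma, adjusted p = 0.0076). In the wildtype degron line it was -0.31 ± 0.15, which did not pass (limma, adjusted p = 0.12). Without the mutant degron library lacking Shld, or without the parental library with Shld, the mutant degron difference was -0.67 or -0.74 and no longer passed (limma, adjusted p = 0.060 and 0.055).

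TRIB3 is a pseudokinase that CHOP and ATF4 induce and that restrains them and AKT. Its levels were 26.6 and 24.2 rescaled FPKM in the knockout line, 23.6 and 24.7 in the mutant degron line, 74.5 and 64.8 in the wildtype degron line, and 66.4 and 69.1 in parental cells. The knockout and mutant degron libraries lay together, well below the other 4 libraries, and the wildtype degron pair enclosed the parental pair. TRIB3 was lower by the largest step of the 6 tested genes in both comparisons with parental cells, with log2 differences of -1.38 ± 0.096 in the knockout line (limma, adjusted p = 1.2e-05) and -1.45 ± 0.096 in the mutant degron line (limma, adjusted p = 2.4e-05). The wildtype degron line differed from parental cells by 0.036 ± 0.096 (limma, adjusted p = 0.78).

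CHAC1 encodes an enzyme that degrades glutathione, and it is a target of the ATF4 and CHOP pathway. It stood at 29.6 and 10.7 rescaled FPKM in the knockout line without and with Shld, at 15.1 and 15.8 in the mutant degron line, at 43.5 and 31.7 in the wildtype degron line, and at 31.5 and 33.8 in parental cells. The lowest of the 8 values was the knockout library with Shld, whereas the knockout library without Shld came close to the parental pair. The standard error, which pools the spread of all 4 pairs, was wide: the difference from parental cells was -0.83 ± 0.35 in the knockout line (limma, adjusted p = 0.091), -1.04 ± 0.35 in the mutant degron line (limma, adjusted p = 0.060) and 0.18 ± 0.35 in the wildtype degron line (limma, adjusted p = 0.70). Without the knockout library lacking Shld, CHAC1 passed as lower in the knockout line, at -1.53 (limma, adjusted p = 0.00012), and in the mutant degron line, at -1.04 (limma, adjusted p = 0.00047). Without the knockout library with Shld, it passed as lower in the mutant degron line (limma, adjusted p = 0.00045), and the knockout difference was -0.14.

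SESN2, sestrin 2, restrains the growth kinase mTORC1 when leucine is short and is also a known p53 target. It was measured at 11.7 and 6.68 rescaled FPKM in the knockout line, 7.23 and 7.23 in the mutant degron line, 15.2 and 12.6 in the wildtype degron line, and 10.7 and 9.62 in parental cells. The wildtype degron pair lay above the parental pair, the mutant degron pair below it, and the knockout pair on either side. None of the differences from parental cells passed, at -0.17 ± 0.21 in the knockout line, -0.43 ± 0.21 in the mutant degron line and 0.42 ± 0.21 in the wildtype degron line (limma, adjusted p = 0.53, 0.15 and 0.12). Without 1 knockout library or the other, SESN2 passed as lower in the mutant degron line (limma, adjusted p = 0.016 in both fits) and as higher in the wildtype degron line (limma, adjusted p = 0.012 without the library lacking Shld and 0.011 without the one with Shld). In the knockout line itself the difference was -0.53 without its library lacking Shld, which passed (limma, adjusted p = 0.016), and 0.19 without its library with Shld, which did not (limma, adjusted p = 0.28).

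DDIT4, also called REDD1, is a stress-induced inhibitor of mTORC1 signalling. Its values were 65.0 and 53.8 rescaled FPKM in the knockout line, 42.1 and 43.1 in the mutant degron line, 90.2 and 75.2 in the wildtype degron line, and 54.7 and 47.0 in parental cells. Unlike DDIT3 and TRIB3, it was not low in the knockout line, where 1 library lay within the parental pair and the other above it. It was higher in the wildtype degron line than in parental cells, by 0.69 ± 0.13 (limma, adjusted p = 0.0028), and the differences in the knockout line, 0.22 ± 0.13, and in the mutant degron line, -0.25 ± 0.13, did not pass (limma, adjusted p = 0.20 and 0.18).

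SLC7A5, the LAT1 transporter that imports large neutral amino acids such as leucine, had the highest level of the 7 genes. It reached 132 and 101 rescaled FPKM in the knockout line, 129 and 138 in the mutant degron line, 580.4 and 523 in the wildtype degron line, and 289 and 243 in parental cells. The lines did not overlap except for the knockout and mutant degron lines, which lay together at the low end. Differences from parental cells were -1.19 ± 0.14 in the knockout line (limma, adjusted p = 0.00024), -0.98 ± 0.14 in the mutant degron line (limma, adjusted p = 0.0014) and 1.05 ± 0.14 in the wildtype degron line (limma, adjusted p = 0.0011), and all 3 passed in each of the 16 alternatives tried.

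SLC7A11 is the cystine transporter of system xc-, which feeds glutathione synthesis, and is a target of both ATF4 and NRF2. At 2.92 and 1.63 rescaled FPKM in the knockout line, 2.69 and 2.51 in the mutant degron line, 7.89 and 6.49 in the wildtype degron line, and 3.58 and 3.30 in parental cells, it was the lowest of the 7 genes. Both wildtype degron libraries lay above the other 6, and both other derived lines lay below the parental pair. In the wider fit it was higher in the wildtype degron line than in parental cells by 0.88 ± 0.19 (limma, adjusted p = 0.0063, with 42.4% of 10522 genes called), and the differences of -0.47 ± 0.19 in the knockout line and -0.30 ± 0.19 in the mutant degron line did not pass (limma, adjusted p = 0.077 and 0.27). A pseudocount of 1 understates changes at such low values.

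**Figure D1:**
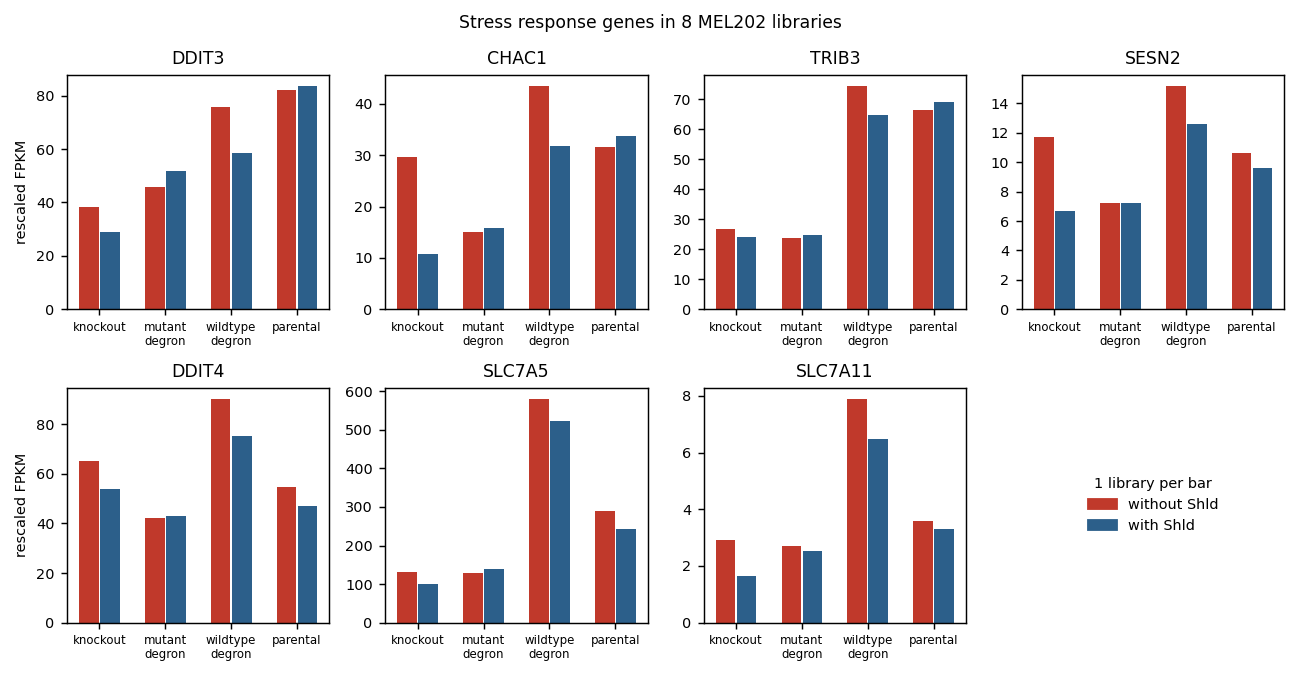
Level of each measured stress response gene in rescaled FPKM (vertical axes, linear from 0) in the 4 lines, without Shld (red) and with Shld (blue), 1 library per bar. SLC7A5 and SLC7A11 stand highest in the wildtype degron line, and the red CHAC1 bar of the knockout line, 29.6, stands apart from its blue bar, 10.7.

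Taken by count, 3 of the 6 genes tested were lower and none higher in the knockout line than in parental cells, where 39.3% of all genes were called and 20.7% were called lower. In the mutant degron line the count was also 3 lower and none higher, against 26.4% called and 14.3% called lower. In the wildtype degron line 2 were higher and none lower, against 47.6% called and 23.5% called higher. The median log2 difference of the 6 genes was -1.01 in the knockout line, -0.87 in the mutant degron line and 0.30 in the wildtype degron line, and that of all genes tested was -0.030, -0.037 and 0.0051. By position alone, both libraries lay below both parental libraries for 4 of the 6 genes in the knockout line (35.8% of all genes did) and for 6 of 6 in the mutant degron line (38.2%). In the wildtype degron line both lay above for 3 genes (39.2%) and below for 1, DDIT3 (38.9%). The 3 comparisons share the parental libraries. The summed melanocyte markers were also lower in the knockout and mutant degron lines than in the other 4 libraries, and the ribosomal protein share was lower in the wildtype degron line; their part in these differences was not tested.

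**Figure D2:**
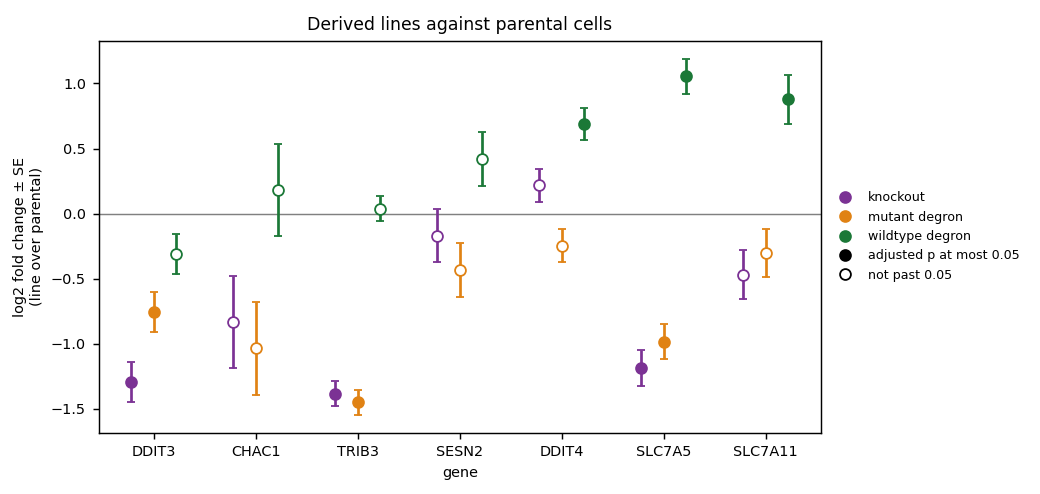
Log2 fold change of each derived line over parental cells (vertical axis, log2(value + 1) scale) for the 7 measured genes, with the standard error of the limma fit as bars and filled points for an adjusted p of at most 0.05. TRIB3, DDIT3 and SLC7A5 lie below 0 with filled points in the knockout and mutant degron lines, and SLC7A5, at 1.05, and DDIT4, at 0.69, lie above 0 in the wildtype degron line; SLC7A11 comes from the wider fit.

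Comparing the derived lines directly, 6 of the 6 genes tested were lower in the knockout line than in the wildtype degron line; 52% of all genes were called there and 26% were called lower. The differences ran from -0.47 ± 0.13 for DDIT4 (limma, adjusted p = 0.013) to -2.24 ± 0.14 for SLC7A5 (limma, adjusted p = 4.3e-06), and TRIB3 differed by -1.42 ± 0.096. SLC7A11 was lower too, with a log2 difference of -1.34 ± 0.19 in the wider fit (limma, adjusted p = 0.00053, with 49.9% of genes called). For CHAC1, -1.01 ± 0.35, and SESN2, -0.59 ± 0.21, the call depended on the libraries (limma, adjusted p = 0.038 for both). It held without the knockout library lacking Shld and was lost without any 1 of the other 7 (limma, adjusted p = 0.052 to 0.18 for CHAC1 and 0.056 to 0.21 for SESN2), and with no filter on low values (limma, adjusted p = 0.12 and 0.11). The DDIT4 call was lost without the knockout library with Shld or the wildtype degron library lacking it (limma, adjusted p = 0.064 and 0.10).

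In the wildtype degron line 6 of the 6 genes were higher than in the mutant degron line, where 54% of all genes were called and 28.1% were called higher. SLC7A5 led with 2.04 ± 0.14 (limma, adjusted p = 1.7e-05), followed by TRIB3 with 1.49 ± 0.096, CHAC1 with 1.22 ± 0.35, DDIT4 with 0.93 ± 0.13, SESN2 with 0.85 ± 0.21 and DDIT3 with 0.45 ± 0.15 (limma, adjusted p = 0.034). SLC7A11 was higher by 1.18 ± 0.19 in the wider fit (limma, adjusted p = 0.0013, with 50.8% of genes called). Without the wildtype degron library lacking Shld, 3 genes remained called: DDIT4, SLC7A5 and TRIB3. The DDIT3 call was also lost without either mutant degron or either parental library (limma, adjusted p = 0.054 to 0.18), and the CHAC1 call without either mutant degron library (limma, adjusted p = 0.075 and 0.064). With no filter on low values both calls were lost (limma, adjusted p = 0.091 for DDIT3 and 0.074 for CHAC1).

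Between the knockout and the mutant degron line, 1 of the 6 genes passed, with 12.6% of all genes called. DDIT4 was higher in the knockout line by 0.46 ± 0.13 (limma, adjusted p = 0.045), and this call was lost without the knockout library lacking Shld or without either mutant degron library (limma, adjusted p = 0.17, 0.20 and 0.19), or with no filter (limma, adjusted p = 0.098). DDIT3 came near it from the other side, at -0.54 ± 0.15 (limma, adjusted p = 0.051), and passed without the knockout library lacking Shld, at -0.73 (limma, adjusted p = 0.014), or without either wildtype degron library (limma, adjusted p = 0.043 in both fits), with median scaling or with the Shld covariate (limma, adjusted p = 0.046 and 0.038). Without the knockout library with Shld, CHAC1 and SESN2 were called higher, by 0.90 and 0.63 (limma, adjusted p = 0.0057 and 0.013). TRIB3, at 0.067 ± 0.096, and SLC7A5, at -0.21 ± 0.14, did not pass.

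On Shld withdrawal, CHAC1 and SESN2 rose in the knockout line, and none of the tested genes passed in the other derived lines. For the tests, the parental pair gives the spread and every other library is assumed to vary like it. CHAC1 stood at 29.6 rescaled FPKM in the knockout line without Shld, against 10.7 with Shld, a 2.77-fold difference and 1.39 ± 0.17 on the log2(value + 1) scale (limma, adjusted p = 3.4e-05). SESN2 stood at 11.7 without Shld, against 6.68 with Shld, a 1.76-fold difference and 0.73 ± 0.18 on that scale (limma, adjusted p = 0.024). In the same line the values of SLC7A11, DDIT3, SLC7A5, DDIT4 and TRIB3 without Shld were 1.79, 1.32, 1.31, 1.21 and 1.10 times those with Shld, and none passed; SLC7A11 had 0.58 ± 0.19 in the wider fit (limma, adjusted p = 0.22). So 2 of the 6 genes tested rose, against 0.977% of all genes called higher and 2.76% called in either direction. All 6 had a difference above 0, as did 50.6% of all genes, and their median was 0.38, against 0.0027 for all genes.

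CHAC1 passed in 7 of 8 alternatives and SESN2 in 4 of 8. With no filter on low values neither passed (limma, adjusted p = 0.27 for CHAC1 and 0.39 for SESN2), and 0 of all 15368 genes were called in that fit. With the spread taken from the other 3 lines CHAC1 alone passed.

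None of the 6 genes passed on withdrawal from the wildtype degron line, with 0.093% of all genes called and 341 at an unadjusted p under 0.05. CHAC1 stood at 43.5 without and 31.7 with Shld, 1.37-fold, or 0.45 ± 0.17 on the log2 scale (limma, adjusted p = 0.80). DDIT3 stood at 75.6 without and 58.5 with Shld, 1.29-fold, or 0.37 ± 0.17 (limma, unadjusted p = 0.044 and adjusted p = 1). The other 4 tested genes had log2 values between 0.15 and 0.26. All 6 lay above 0, with a median of 0.26, as did 53.8% of all genes, whose median was 0.015.

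The mutant degron line also had none of the 6 past the threshold, with 0.0465% of all genes called and 146 at an unadjusted p under 0.05. CHAC1 was at 15.1 without and 15.8 with Shld, and SESN2 at 7.23 in both libraries. The log2 differences of the 6 genes ran from -0.18 ± 0.17 for DDIT3 to 0.00064 ± 0.18 for SESN2. In parental cells, whose pair gave the spread and so has no test, the values ran from -0.099 for CHAC1 to 0.25 for SLC7A5, and 3 of the 6 genes lay above 0 (55.8% of all genes did).

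The differences between withdrawals were tested directly. The CHAC1 difference was larger in the knockout line than in the mutant degron line by 1.45 ± 0.23 (limma, adjusted p = 0.0036 on log2 values), and CHAC1 was the 1 gene of 6 to pass, with 0.453% of all genes called. Between the knockout and the wildtype degron line the CHAC1 withdrawals differed by 0.94 ± 0.23 (limma, adjusted p = 0.26), and none of the 6 genes passed, with 0.0233% of all genes called and 269 at an unadjusted p under 0.05. For SESN2 these differences were 0.73 ± 0.25 and 0.48 ± 0.25 (limma, adjusted p = 0.29 and 1.0). None passed between the wildtype and the mutant degron line, with 0.244% of all genes called and 373 at an unadjusted p under 0.05. By the column headers the knockout cells were 4 days without Shld and the degron cells 2 days, so line and time cannot be told apart here.

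**Figure D3:**
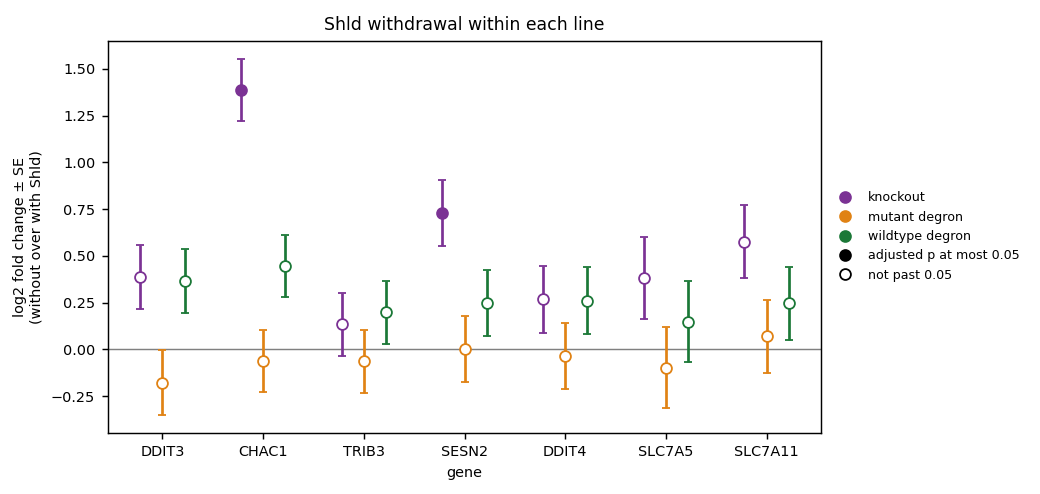
Log2 fold change without over with Shld (vertical axis, log2(value + 1) scale) in each derived line for the 7 measured genes, with the standard error of the limma fit as bars and filled points for an adjusted p of at most 0.05. The 2 filled points are CHAC1, at 1.39, and SESN2, at 0.73, in the knockout line, and the mutant degron values lie near 0.

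Other genes of the pathway were taken from fixed lists, also chosen with earlier results of these data known, starting upstream. Of 14 eIF2 kinases, eIF2 and eIF2B subunits and eIF2 phosphatase subunits, none passed on Shld withdrawal in any of the 3 derived lines. Against parental cells, 3 were higher and 1 lower in the knockout line (39.3% of all genes called), 2 higher and 1 lower in the mutant degron line (26.4%), and 3 higher and 4 lower in the wildtype degron line (47.6%), so the shares called were near or below those of all genes. EIF2AK3, which encodes PERK, was higher in all 3 derived lines, by 0.44 ± 0.14, 0.52 ± 0.14 and 0.79 ± 0.14 in the knockout, mutant degron and wildtype degron line (limma, adjusted p = 0.031, 0.023 and 0.0021). PPP1R15A, the stress-induced eIF2 phosphatase subunit GADD34, was higher in the knockout line by 0.57 ± 0.14 (limma, adjusted p = 0.010). EIF2S2, the beta subunit of eIF2, was lower in the knockout and mutant degron lines, with log2 differences of -0.40 ± 0.11 and -0.37 ± 0.11, and also in the wildtype degron line, at -0.32 ± 0.11 (limma, adjusted p = 0.034).

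Among 25 other tested targets of ATF4 and CHOP, 6 were higher and 6 lower in the knockout line than in parental cells (39.3% of all genes called), 6 higher and 8 lower in the mutant degron line (26.4%), and 8 higher and 1 lower in the wildtype degron line (47.6%). Compared directly, 4 were higher and 10 lower in the knockout than in the wildtype degron line (52%). In the wildtype degron line 12 were higher and 3 lower than in the mutant degron line (54%). The amino acid transporter gene SLC1A4 followed SLC7A5. It stood at 6.35 and 6.67 rescaled FPKM in the knockout line, 7.34 and 5.75 in the mutant degron line, 48.5 and 46.5 in the wildtype degron line, and 19.0 and 16.1 in parental cells, with differences from parental cells of -1.30 ± 0.12, -1.30 ± 0.12 and 1.39 ± 0.12. SLC3A2, the heavy chain that carries both SLC7A5 and SLC7A11 to the membrane, was higher in the wildtype degron line by 1.03 ± 0.12 (limma, adjusted p = 0.00096), at 539.9 and 502, against 285 and 226 in parental cells. Its levels in the knockout line, 311 and 272, and the mutant degron line, 284 and 269.9, lay close to those of parental cells. NUPR1, a stress-induced chromatin protein, differed by -0.98 ± 0.20 between knockout and parental cells and by -1.23 ± 0.20 between mutant degron and parental cells (limma, adjusted p = 0.0054 and 0.0032). Another amino acid transporter gene, SLC43A1, was higher in both, by 0.90 ± 0.099 and 1.05 ± 0.099. PSAT1, an enzyme of serine synthesis, was lower in the mutant degron line, at -0.92 ± 0.13, and in knockout cells, at -0.62 ± 0.13 (limma, adjusted p = 0.0016 and 0.0059). KLHL24 was higher in the knockout and mutant degron lines, by 0.82 ± 0.13 and 0.89 ± 0.13 (limma, adjusted p = 0.0013 and 0.0016).

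On Shld withdrawal, 1 of these 25 targets passed in the knockout line and none in the other derived lines. GDF15, a secreted stress cytokine that p53 also induces, stood at 667 rescaled FPKM in the knockout line without Shld, against 202 with Shld, a log2 difference of 1.72 ± 0.29 (limma, adjusted p = 0.0012). The knockout library with Shld was the lowest of the 8, as for CHAC1, and the one without Shld lay above the parental pair, 639.6 and 511, whereas that of CHAC1 lay below its parental pair. PHGDH, the first enzyme of serine synthesis, ran the other way: it stood at 125 and 185 rescaled FPKM without and with Shld in the knockout line, 88.5 and 46.2 in the mutant degron line, and 75.03 and 139 in the wildtype degron line. Its withdrawals differed by -1.49 ± 0.27 for knockout less mutant degron and by -1.81 ± 0.27 for wildtype less mutant degron (limma, adjusted p = 0.0095 and 0.0017). Among 18 cytosolic aminoacyl-tRNA synthetase genes, a class of ATF4 targets that charge tRNAs, none passed on withdrawal in any derived line. Against parental cells, 6 were higher and 3 lower in the knockout line (39.3% of all genes called), none higher and 3 lower in the mutant degron line (26.4%), and 3 higher and none lower in the wildtype degron line (47.6%). In the knockout line 5 were higher and 6 lower than in wildtype degron cells (52%). In the wildtype degron line 10 were higher and none lower than in the mutant degron line (28.1% of all genes called higher), led by CARS, at 0.87 ± 0.12, and GARS, at 0.82 ± 0.17 (limma, adjusted p = 0.00061 and 0.0036). The 16 tested genes of the ATF6 and XBP1 branch belong to a separate arm of the unfolded protein response. In the mutant degron line 9 were higher and none lower than in parental cells (26.4% of all genes called), and 11 of the 16 lay above 0. In the wildtype degron line 9 were higher and 2 lower (47.6%). In the knockout line 4 were higher and 3 lower (39.3%). None of the 16 passed on withdrawal in any derived line. In the mutant degron line 1 of them lay above 0 on withdrawal, with a median of -0.19, against -0.0074 for all genes. In the knockout line 10 did, with a median of 0.043, and in the wildtype degron line 15, with a median of 0.12.

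Targets of NRF2, another regulator of SLC7A11, were also counted. Of 11 tested, 9 were lower and none higher in the knockout line than in parental cells (20.7% of all genes called lower), 7 lower and none higher in the mutant degron line (14.3%), and 1 lower and 2 higher in the wildtype degron line (47.6% called in either direction). NQO1, a quinone reductase, was at 339 and 323 rescaled FPKM in the knockout line, 529 and 541 in the mutant degron line, 645 and 689.8 in the wildtype degron line, and 763 and 908 in parental cells, and differed from parental cells by -1.33 ± 0.10, -0.64 ± 0.10 and -0.32 ± 0.10. OSGIN1, an oxidative stress gene, had its lines in the same order as SLC7A5, at 21.9 and 23.0, 25.8 and 26.9, 68.0 and 64.7, and 42.4 and 42.6 in the same 4 lines. Compared directly, 10 of the 11 were lower and none higher in the knockout than in the wildtype degron line (26% of all genes called lower). In the wildtype degron line 9 were higher and none lower than in the mutant degron line (28.1% of all genes called higher). None of the 11 passed on withdrawal in any derived line.

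Because SESN2 and GDF15 are also induced by p53, a list of p53 targets without them was set beside the withdrawal. In the knockout line 9 of 13 rose without Shld and none fell, with a median log2 difference of 0.80, against 0.977% of all genes called higher and a median of 0.0027. CDKN1A, the cell cycle inhibitor p21, stood at 296 rescaled FPKM without Shld, against 88.9 with Shld, a log2 difference of 1.73 ± 0.19 (limma, adjusted p = 1.5e-05). ZMAT3, an RNA-binding protein gene, stood at 36.2 without and 15.5 with Shld, a difference of 1.17 ± 0.19 (limma, adjusted p = 0.00080). None of the 13 passed on withdrawal in the wildtype or the mutant degron line. In the wildtype degron line 10 of the 13 lay above 0, with a median of 0.21, against 0.015 for all genes. The mutant degron line had 9 above 0, with a median of 0.034. Compared directly, the withdrawals had a median difference of 0.56 for knockout less wildtype degron and 0.77 for knockout less mutant degron. No p53 target passed in the first of these comparisons, where 0.0233% of all genes were called. In the second, 3 of the 13 were higher and none lower, against 0.453% of all genes called. The part of p53 in the CHAC1 and SESN2 values was not tested.

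**Figure D4:**
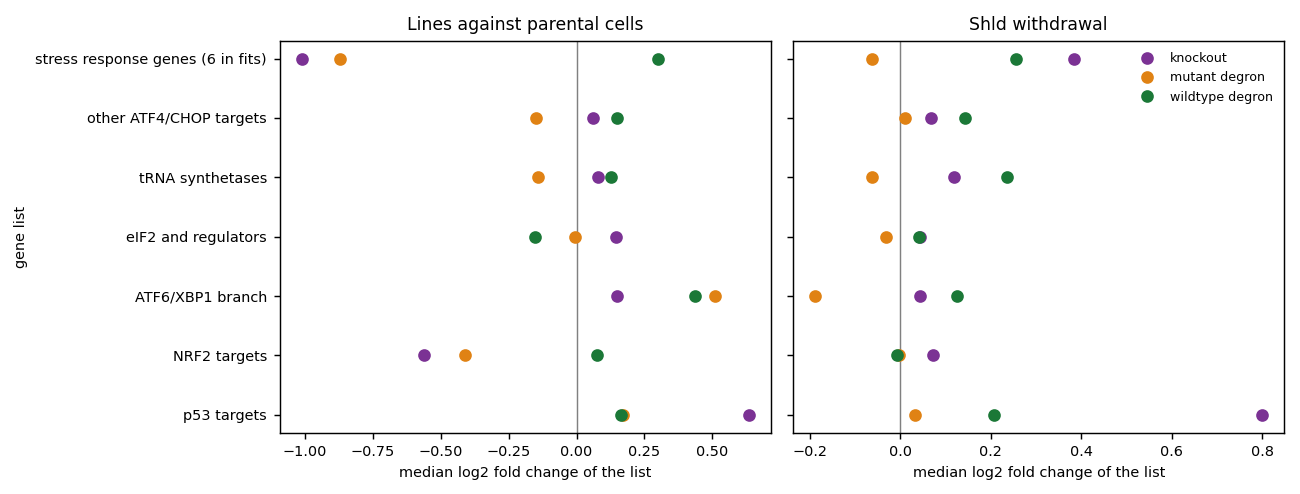
Median log2 fold change of the 6 tested stress response genes and of each fixed list (rows), for derived lines over parental cells (left) and without over with Shld (right), coloured by line. The stress response genes have the lowest medians against parental cells in the knockout line, -1.01, and the mutant degron line, -0.87, and the p53 targets have the highest on withdrawal in the knockout line, 0.80.

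Across the 8 libraries the members did not all move alike. Pearson's r of log2(value + 1) was highest for SLC7A5 with SLC7A11, 0.96, and for SESN2 with CHAC1, 0.93, and lowest for DDIT4 with DDIT3, 0.18. Outside the members, STX6, NR1H2, OTUD5, DYNC1LI2 and NFKB2 had the profiles most like the mean of the 6 tested genes, with r of 0.991 to 0.996. STX6, a vesicle fusion protein gene, stood at 26.6 and 22.1 rescaled FPKM in the knockout line, 22.6 and 24.0 in the mutant degron line, 38.3 and 35.1 in the wildtype degron line, and 32.4 and 30.6 in parental cells. RBCK1, SNAP29 and LACTB were most like CHAC1, with r of 0.99, 0.98 and 0.97. RBCK1, a subunit of the linear ubiquitin ligase, stood at 46.6 in the knockout line without Shld, against 36.0 with Shld. These are descriptions over 8 libraries that share 4 lines, picked as the highest among all genes tested.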

How the data were processed

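RNA was measured in 8 libraries of MEL202 cells, 1 for each of 4 lines without and with Shld. The deposited values are FPKM-type, 1 per locus for 32087 loci, and the authors had rescaled them so that the 75th percentile was 10 in every library. That FPKM was the input is inferred from the tools named and the values. TopHat, Cufflinks and the hg19 build are named per the submitters' processing notes; their versions, the annotation and the use of strand: not given in the sources used here. Absolute depth is unknown. From low values, the libraries held 1.05 to 1.48 times as many fragments per unit as the parental library with Shld, with 1.44 and 1.48 in the knockout and mutant degron libraries with Shld by the most frequent ratio, and 1.27 and 1.17 by the median ratio.

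Columns were matched to samples by name. Loci of small RNAs and without names were left out, 1 locus was kept per symbol, and 8600 genes with a mean of at least 5 entered limma 3.58.1 in R 4.3.3 with an intensity trend on log2(value + 1). The line fit used the 2 libraries of each line (4 residual degrees of freedom). In the withdrawal fit the parental pair shared a mean and each other library had its own coefficient (1 residual degree of freedom, moderated across genes). P-values were adjusted by Benjamini-Hochberg at 0.05, and ± gives the model's standard error. Fold changes on this scale understate the change of low genes. The members and gene lists were chosen with earlier results of these data known. Besides the members and SF3B1, the text names list genes past the threshold, at most 4 per list and comparison by size, and the 5 genes most correlated with the mean of the members and 3 with CHAC1. Alternatives changed the pseudocount, the filter, the scaling, the locus rule, the Shld covariate, the libraries and the source of the spread.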

Additional observations from a re-analysis of the deposited data

Results flagged for a closer look

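CHAC1 differed between lines under the same contrast, Shld withdrawal. Its log2 difference without against with Shld was larger in the knockout line than in the mutant degron line by 1.45 ± 0.23 (limma test of the difference, adjusted p = 0.0036), from 29.6 and 10.7 rescaled FPKM without and with Shld in knockout cells, against 15.1 and 15.8 in mutant degron cells. Each value comes from 1 library. By the column headers the knockout cells also carried a degron on wildtype SF3B1. They were 4 days without Shld and the mutant degron cells 2 days, so line and time cannot be told apart. Between the knockout and the wildtype degron line the CHAC1 withdrawals differed by 0.94 ± 0.23, which did not pass. With no filter on low values the difference from the mutant degron line did not pass either, in a fit that called 0 of all 15368 genes.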

How the results depend on the processing

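Leaving out each library in turn moved the number of genes past the threshold, out of 6, between 3 and 5 for the knockout line and 2 and 5 for the mutant degron line against parental cells, 3 and 6 for the knockout against the wildtype degron line, 0 and 3 for the knockout against the mutant degron line and 3 and 6 for the wildtype against the mutant degron line. For the knockout against the mutant degron line, no filter gave 0, and median scaling and the Shld covariate gave 2 each. For knockout withdrawal, a minimum mean of 1, quantile normalization and the spread of the other 3 lines gave 1 each and no filter gave 0. For its difference from mutant degron withdrawal, no filter gave 0. In both, no filter called 0 of all 15368 genes. Signs turned, in values that had not passed, when a library was left out: SESN2 in the knockout line against parental cells ran from -0.53 to 0.19, TRIB3 and CHAC1 in the wildtype degron line from -0.063 to 0.14 and -0.041 to 0.40, and TRIB3, CHAC1 and SESN2 in the knockout against the mutant degron line from -0.00093 to 0.13, -0.49 to 0.90 and -0.10 to 0.63. With quantile normalization SESN2 withdrawal in the mutant degron line was -0.021. Of the members' other values, 800 kept their side of the threshold, 41 lost a call and 16 gained one; the cause was not tested.

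Calls over all genes ran over the alternatives from 2086 to 4155 in the knockout line (3384 as reported), 793 to 2827 in the mutant degron line (2273) and 2162 to 4571 in the wildtype degron line (4090) against parental cells. They ran from 3256 to 5363 (4472), 295 to 1613 (1084) and 3062 to 5343 (4644) for the knockout against the wildtype degron, the knockout against the mutant degron and the wildtype against the mutant degron line. For withdrawal they ran from 0 to 247 (237) in the knockout, 0 to 7 (4) in the mutant degron and 0 to 8 (8) in the wildtype degron line, and for the differences from 0 to 6 (2), 0 to 41 (39) and 0 to 22 (21) for knockout less wildtype degron, knockout less mutant degron and wildtype degron less mutant degron.

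No paired analysis was possible because the groups share fewer than 2 replicate numbers. The lines were instead matched on Shld state, as a covariate, which gave 3449, 2305 and 4144 calls in the knockout, mutant degron and wildtype degron line against parental cells. Leaving out a library was not run for withdrawal, since each difference rests on 2 libraries and the spread on the parental pair. The files hold no counts, so no interval for counting error can be given.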
